A study of Mus musculus with 4 samples.

Results

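The transcripts described here are those of the immunoglobulin chains: heavy chains with their constant and variable regions, kappa and lambda light chains, the surrogate light chain and the joining chain. Of the 41174 probes that are not controls, 67 were taken by their names in the array files (Igh, Igk, Igl and Igj, without Ighmbp2) or by a description as an immunoglobulin heavy, kappa, lambda or light chain. They comprise 13 heavy constant, 19 heavy variable, 22 kappa and 8 lambda probes, 2 probes of the surrogate light chain Igll1, 2 of the joining chain Igj, and 1 light chain probe whose locus the files do not give. All 67 were kept, including several probes for a single gene.

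Livers and spleens came from male mice of the strain C57BL/6J, aged 13 weeks. The control diet was purified and poor in nucleoprotein (called low NP, with 0.03% nucleic acids), and the treatment diet held 1.2% nucleoprotein in addition (called NP, with 0.5% nucleic acids) and was given for 4 weeks. Nucleoprotein is protein bound to nucleic acid, and the diets differ in this supplement. RNA was pooled by diet and tissue, and how many mice went into each of the 4 pools is not stated in the labels. Each tissue has 2 arrays with Cy3 and Cy5, array 1 with the NP pool in Cy5 and array 2 with it in Cy3. Pooled samples are labelled 1 and 2 in step with the dyes, and it is not settled whether both arrays of a tissue held the same pools. The arrays of a tissue were therefore counted as 1 replicate, no test was run, and the values compare these pools, not the diets.

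An antibody is built from paired heavy and light chains, each with a variable region that binds antigen and a constant region; the heavy constant region sets the class, such as IgM, IgG or IgA. Variable regions are assembled from gene segments in each developing B cell, light chains come from either the kappa or the lambda locus, and plasma cells secrete the finished antibody in bulk. The joining chain links the units of secreted IgM and IgA. The spleen holds many B cells and plasma cells, while hepatocytes make no antibody.

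Ratios are log2 of NP over low NP after background correction and loess normalization, so that -1 is a 2-fold lower signal in the NP pool. The ± value says how far either array lies from their mean, which reflects array and dye error, and also variation between pools if the arrays held pools of their own. A probe counts as measured where, on each array of the tissue, the scanner flagged 1 or both of its channels as well above background. It is called where the ratio passed 1.5-fold (0.58 on the log2 scale) the same way on each of the arrays. Levels are log2 intensities per pool, set on a common scale over the arrays. They are compared between pools for the same probe or the same summed marker list only. For how many probes of the whole array the levels of NP and low NP do not overlap was not counted.

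Because the probes are short designed sequences of 60 bases, what each of them reads matters for the values. The 2 probes below show the join of the lambda light chain. Both carry the name Igl-V1, and both map on the minus strand of mm7 to the variable segment at one end and the joining segment at the other, 21.8 kb apart on chromosome 16. Capitals mark the run of 19 bases that the pair shares, which lies at the end of the variable segment and holds the letters TATTNCTG.
A_52_P383114, chr16:18612973-18634787: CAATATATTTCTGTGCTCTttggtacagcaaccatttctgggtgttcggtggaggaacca
A_51_P503757, chr16:18612988-18634805: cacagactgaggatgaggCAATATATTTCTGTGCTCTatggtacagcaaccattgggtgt
Their starts are 18 bases apart at the variable end and 15 bases apart at the joining end, a difference of 3 bases. A position split in this way is that of a recombined transcript, since the unrecombined locus holds the parts far apart.

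Other lambda probes lie within the variable segment. The following pair overlaps by 56 bases on the minus strand of mm7, and capitals mark the 50 of 56 aligned bases at which they are identical. Both are named Igl-V1 but were designed on different mRNA records.
A_52_P672903, chr16:18634908-18634967: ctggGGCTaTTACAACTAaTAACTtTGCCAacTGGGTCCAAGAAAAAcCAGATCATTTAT
A_52_P450276, chr16:18634904-18634963: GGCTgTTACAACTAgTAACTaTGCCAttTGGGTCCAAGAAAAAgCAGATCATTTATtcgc
The pair is shown because a close relative of a variable segment can give signal on such a probe. Despite the 6 differing bases, their ratios were near each other, at -2.57 and -2.04 on liver array 1, -4.18 and -3.96 on liver array 2, and 0.64 ± 0.02 and 0.63 ± 0.02 in spleen.

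The conserved end of the variable region recurs across both heavy and light chain probes. The letters TATTNCTG, where N is any base, can be read as the tyrosine and cysteine codons at the end of the variable region. They occur in 21 of the 67 probes (31.3%), read on the probe's own strand, against 0.877% of all 41174 probes, and on the other strand in 1.49% against 0.67%. By class they were found in 7 of 19 heavy variable, 11 of 22 kappa and 2 of 8 lambda probes, in the light chain probe of no given locus, and in none of the constant or joining chain probes. TATTACTGT, a longer form that overlaps it, was present in 10 of the 67 probes (14.9%) and in 0.134% of all probes. A match describes the letters of the probe alone. The median GC content was 45% for the 67 probes and 40% for all probes. These 6 probes, in mm7, are those with the motif whose smaller liver ratio of the 2 arrays was largest among heavy variable and among kappa probes, with the motif in capitals.
A_52_P139027 (Igh-VJ558), minus strand, chr12:112729499-112729558: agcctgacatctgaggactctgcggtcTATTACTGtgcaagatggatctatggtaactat
A_52_P469009 (AY182513), minus strand, chr12:111581219-111581278: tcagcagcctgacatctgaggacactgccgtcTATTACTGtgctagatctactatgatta
A_52_P565636 (AY172876), minus strand, chr12:112417642-112417701: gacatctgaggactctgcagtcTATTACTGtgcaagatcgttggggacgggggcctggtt
A_52_P39164 (Igk-V21-12), plus strand, chr6:70536801-70536860: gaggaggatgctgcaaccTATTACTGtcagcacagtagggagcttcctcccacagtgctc
A_52_P61243 (L18942), plus strand, chr6:70722138-70740584: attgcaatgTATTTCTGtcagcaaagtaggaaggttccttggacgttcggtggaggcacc
A_52_P125897 (Igk-V1), plus strand, chr6:68247242-68247301: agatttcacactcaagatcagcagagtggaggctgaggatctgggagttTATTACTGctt

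Related probes can share signal. Of the 67 probes, 36 had another of the 67 with a similar sequence (local alignment score of at least 24), in 49 pairs, and 47 of these pairs lay within a class. The constant regions of the gamma chains are an example. A probe for IgG1 (Igh-4) and a probe for IgG2a (Igh-1a) align over 57 bases with 43 identical, shown in capitals; the latter is placed on unlocalised sequence of chromosome 12 in mm7.
A_51_P461067 (Igh-4), minus strand, chr12:110850402-110850461: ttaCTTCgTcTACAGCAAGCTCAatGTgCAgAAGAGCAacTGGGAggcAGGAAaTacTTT
A_51_P311235 (Igh-1a), plus strand, chr12_random:5440237-5440296: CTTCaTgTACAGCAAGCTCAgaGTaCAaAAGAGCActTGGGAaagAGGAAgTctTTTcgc
Names in the array files can mislead in the heavy chain locus. A group of 3 probes named Igh-VJ558, a variable family, lie at 110781031 to 110781348 on chromosome 12, 4.94 kb from a probe described as I alpha and 159 kb from the IgM probes, on the constant side of the locus. In the RefSeq gene order Igha stands at that end, ahead of Ighe, the gamma genes, Ighd and Ighm. They are treated here as heavy constant and called the alpha-end probes. One of them shares a run of 11 bases, in capitals, with an IgM probe.
A_52_P571419 (IgM), minus strand, chr12:110942239-110942298: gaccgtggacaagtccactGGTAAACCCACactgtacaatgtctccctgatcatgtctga
A_51_P509679 (alpha end), minus strand, chr12:110781031-110781090: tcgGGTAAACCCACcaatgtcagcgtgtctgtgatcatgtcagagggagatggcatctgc

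In the liver the immunoglobulin transcripts were lower in the NP pool in all classes with a measured probe. Of the 67 probes, 43 were called lower and none higher, against 2.91% of the 25188 measured probes of the array called lower and 0.0516% called higher. The median over all 67 probes was -1.74, and over all probes of the array it was 0.01. The median ratio was -4.19 for the joining chain, -3.80 for heavy constant, -3.20 for lambda, -1.40 for heavy variable and -1.34 for kappa, over every probe of the class. Not all 67 were equally readable. In liver 37 were well above background in both channels of both arrays, 23 were measured but not in every channel, and 7 were not measured. The 7 were both Igll1 probes, 3 heavy variable probes (AY182587, ENSMUST00000055939 and Igh) and 2 kappa probes (A_52_P655763 and TC1460407), with mean ratios between -0.07 and 0.09.

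IgM, the antibody class made by B cells before switching, was read by 3 probes. The most heavily spotted of them, A_51_P485421 (Igh-6, the gene Ighm), had levels of 9.93 and 9.05 in the NP liver pool on arrays 1 and 2, and of 14.0 on both arrays in the low-NP liver pool. Its ratio was -4.51 ± 0.44, and both arrays of the NP pool lay below both of the low-NP pool. Its 10 spots per array had scanner processed log2 ratios with means of -4.92 and -5.14 and SDs of 0.034 and 0.17, which measure spot error only. The other IgM probes gave -4.56 ± 0.35 and -5.13 ± 0.59, and the IgM median was 23.6-fold lower in the NP pool.

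The joining chain, needed for secreted IgM and IgA, gave a similar picture. Probe A_51_P150705 had levels of 9.24 and 8.03 in the NP liver and 13.1 and 13.6 in the low-NP liver, a ratio of -4.74 ± 0.87. Probe A_51_P150710 had levels of 11 and 10.4 against 14.1 and 14.5, a ratio of -3.65 ± 0.51. On each probe both arrays of the NP pool lay below both arrays of the low-NP pool, and the medians corresponded to 18.3-fold.

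The alpha-end probes lie where the RefSeq order places Igha, the heavy chain of IgA. A_51_P509679 had levels of 10.7 and 10.1 in the NP liver and 14.2 and 14.5 in the low-NP liver. The 3 probes had ratios of -3.96 ± 0.41, -3.80 ± 0.62 and -3.04 ± 0.50. The probe described as I alpha, by contrast, stood near 8 in every pool and gave 0.03 ± 0.02 in liver and -0.07 ± 0.01 in spleen. It was the one measured liver probe that lay above 0 on both arrays, and its level of 7.91 to 7.98 in all 4 pools is close to that of the probes not measured.

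The gamma chain probes of IgG spread widely in liver, also between probes of the same name. A constant probe named Ighg had levels of 9.99 and 8.90 in the NP liver and 13.7 and 13.9 in the low-NP liver, a ratio of -4.34 ± 0.67. The IgG2a probes gave -4.42 ± 0.78 (A_51_P311235) and -1.80 ± 0.55 (A_51_P351953). For IgG1, A_51_P122752 had levels of 9.62 and 9.15 against 10.7 and 11.1, so the pools did not overlap on it. The 3 IgG1 probes gave -1.55 ± 0.44, -2.19 ± 0.79 and -1.55 ± 0.74, the least negative of the called constant region probes together with the second IgG2a probe. C57BL/6 mice carry the IgG2c gene in place of IgG2a, so which transcript the Igh-1a probes read was not tested.

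Lambda light chains were called lower by all 8 probes. The lowest, A_51_P503756, had levels of 10.2 and 9.44 in the NP liver and 14.9 and 15.1 in the low-NP liver, a ratio of -5.22 ± 0.48, the most negative mean of any measured probe of the array in liver. The other 7 lay between -2.90 and -2.04 on array 1 and between -4.39 and -3.76 on array 2, those within the variable segment, those that span the join and A_52_P450277, placed on unlocalised sequence of chromosome 16 (-3.30 ± 0.62), alike.

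Kappa light chains, the common light chains of the mouse, were read mostly by variable segment probes, and 10 of the 22 were called lower. BC080787 gave -3.33 ± 0.68, Igk-V21-12 gave -3.02 ± 0.78 and L18942 gave -2.57 ± 1.04. In the order of the smaller of the 2 arrays, A_51_P390937, Gm1499 and an Igk-V1 probe (A_52_P125897) followed with -2.08 ± 0.79, -1.73 ± 0.52 and -1.97 ± 0.89. For 8 kappa probes the NP liver channel was not well above background on either array, among them ENSMUST00000089795 and ENSMUST00000089820. For these 2 the mean fold of the arrays has bounds of 1.1-fold and 1.14-fold lower.

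Of the 19 heavy variable probes, 11 were called lower in liver. The lowest were 2 Igh-VJ558 probes at -2.54 ± 0.51 and -2.03 ± 0.68, with AY182513 at -2.19 ± 0.54 between them. An Ighg probe that lies in the variable part of the locus and D17387 did not reach well above background in the NP liver. Their mean folds have bounds of 1.11-fold and 1.18-fold lower. The same holds for the light chain probe of no given locus, U55685, with a bound on the mean of 1.74-fold, and none of these 3 was called.

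The size of a liver ratio went with how bright the probe was in the low-NP liver pool. The 20 probes with a level under 9 had a median of -0.19 (-0.93 to 0.09) and none was called. The 25 probes from 9 to 11 had a median of -1.73 and 21 were called. The 22 probes at 11 and over had a median of -3.51 (-5.22 to -2.19) and all were called. The IgG1 probes, with low-NP liver levels of 9.86 to 10.9, belong to the middle range. The classes have median low-NP liver levels of 13.8 for the joining chain, 13.1 for heavy constant, 11.9 for lambda, 9.69 for heavy variable and 9.43 for kappa, the same order as their liver ratios, and what part the level plays in that order was not tested. The ratio is the difference between the NP level and this level, so the axes share a value.

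For 15 probes the NP liver channel was not well above background on either array, so the mean fold of the arrays has only a lower bound. These were 6 heavy variable, 8 kappa and the U55685 probe, with bounds on the mean from 1.1-fold to 2.63-fold lower in NP. The bound takes the NP level as read, or the lowest signal flagged well above background where that is higher. It allows for the dim NP channel and not for the distance between the arrays, so array 1 alone can lie below it. The highest bound was that of AY895789, which was also the only one of the 15 to be called. It lies just inside the threshold, at -0.67 and -2.14 on arrays 1 and 2, while Igk-V19-14 lies just outside at -0.58 and -2.19. In every one of the 60 measured probes array 2 was further from 0 than array 1, as in 17198 of the 25188 measured probes of the array. The class medians of measured probes on arrays 1 and 2 were -3.18 and -4.36 for heavy constant, -2.46 and -3.98 for lambda and -0.74 and -2.22 for kappa. B cell markers had -1.35 and -2.78 and T cell markers -1.09 and -2.38, so the distance is not particular to the immunoglobulins.

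In the spleen the same 67 probes had a median of 0.01 and most were not called. The lambda light chain was higher in the NP pool on all 8 probes and both arrays, with a median of 0.70 or 1.62-fold, and IgG1 was lower on all 3 probes and both arrays, with a median of -0.99 or 1.99-fold. In all, 5 of the 67 probes were called higher and 5 lower, where the array as a whole had 0.0469% of its 27695 measured probes called higher and 5.16% called lower. The 5 called higher were all lambda probes and made up 5 of the 13 probes called higher on the whole array. All 8 lambda probes carry the name Igl-V1. Among those called, A_52_P450276 overlaps A_52_P672903 by 56 bases and A_52_P829408 by 28, so the 5 are not independent readings. With 1 probe per gene name, 0 were called higher. The 5 called lower were the 3 IgG1 probes and 2 heavy variable probes. Both Igll1 probes and AY182587 were not measured in spleen.

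For the lambda chain, A_52_P672903 had levels of 14.7 on both arrays in the NP spleen and 14.0 and 14.1 in the low-NP spleen, with ratios of 0.63 and 0.66. The probes that span the join had ratios of 0.94 and 0.67 (A_52_P383114, called) and of 0.85 and 0.58 (A_51_P503757, just outside the threshold). The other called probes had 0.74 and 0.61, 0.65 and 0.61, and 0.59 and 0.63, the last of these just inside. On every one of these probes the lower array of the NP pool was above the higher array of the low-NP pool. What share of the measured spleen probes did so was not counted. Ratios above 0 on both arrays were found for 6258 of the 27695.

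The brightest lambda probe, A_51_P503756, had levels of 17.6 and 17.4 in the NP spleen and 16.1 and 16.9 in the low-NP spleen, with ratios of 1.45 and 0.52, so it was not called. A_52_P450277 had ratios of 1.18 and 0.55 and was not called either. These 2 probes showed the largest distances between the arrays in the class. A pair of lambda probes outside the 67, described by their mRNA as the joining and constant parts of lambda 3 (ENSMUST00000074329) and of lambda 2 and 4 (2010309G21Rik), had spleen means of 0.30 and 0.25.

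IgG1 was the clearest difference among heavy chains of the spleen. Probe A_51_P122752 had levels of 13.1 on both arrays in the NP spleen and 14.1 and 14.2 in the low-NP spleen, with ratios of -1.05 and -1.10. A_51_P461067 had ratios of -0.92 and -1.05, and A_52_P1054013 of -0.76 and -1.10. The levels of the NP and low-NP spleen did not overlap on any of the 3 probes, and the median distance between arrays and mean was 0.07. What share of the measured spleen probes showed no such overlap was not counted. The IgG2a probes gave -0.56 ± 0.04 and -0.42 ± 0.04 and were not called. On A_51_P311235 the levels were 14.7 and 14.6 in the NP spleen and 15.3 and 15.1 in the low-NP spleen, without overlap. The constant Ighg probe had -0.19 ± 0.14.

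IgM, alpha-end and joining chain probes did not differ between the spleen pools beyond the distance between the arrays. The IgM probe A_51_P485421 had levels of 16.4 and 16.3 in the NP spleen and 16.3 and 16.4 in the low-NP spleen, and the joining chain probe A_51_P150705 had 15.5 and 15.3 against 15.4 and 15.6, so both overlapped. The IgM probes had ratios of 0.11 and -0.14, 0.71 and -0.16, and 0.59 and -1.02, with a median of -0.02. The last pair, that of A_52_P571419, passed 1.5-fold in opposite directions on the 2 arrays, as did 26 of the 27695 measured probes. The alpha-end probes had means of 0.04 to 0.11 and the joining chain probes -0.09 each, with the sign changing between arrays on every one of them.

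Kappa probes were close to 0 in spleen, with a median of -0.01, a range from -0.50 to 0.77 and none called. The highest, ENSMUST00000089795, had 0.36 and 1.19 on the 2 arrays, and the lowest, NP060060, had -0.45 and -0.55. A_51_P390937, among the lower kappa probes of the liver, had 0.14 on both spleen arrays. Among heavy variable probes, a probe named Igh-6 that lies in the variable part of the locus gave -0.87 ± 0.07 and an Igh-VJ558 probe (A_51_P328275) gave -0.65 ± 0.02, both called lower. On the positive side, the Ighg probe in the variable part had 0.40 and 0.78 and was not called.

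The spleen differences depend in part on how the ratio was made. With median centring in place of loess, which called 0.0181% of measured probes higher and 5.17% lower, none of the 8 lambda probes was called, 4 of 8 lay above 0 on array 2, and the lambda median was 0.40, while the median of all measured probes moved from -0.02 to -0.13. The lambda probes relative to the joining chain, compared within each array, were higher by 0.68 and 0.91 after loess and by 0.61 and 1.06 after median centring. Relative to kappa they were higher by 0.79 and 0.64 after loess and by 0.91 and 0.47 after median centring. Relative to IgM they were higher by 0.20 and 0.77 after loess and by 0.01 and 1.08 after median centring, so array 1 with median centring shows no separation from IgM. IgG1 was called lower by 3 of 3 probes under each of these corrections, and its median after median centring was -1.26.

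Spleen array 1 stood apart in its flags, with 93.3% and 94.8% of spots well above background against 59.3% to 68.0% in the channels of the other 3 arrays. Without it, on array 2 alone, 5 of 8 lambda probes were past 1.5-fold higher and 3 of 3 IgG1 probes past 1.5-fold lower, where 0.253% and 7.65% of all measured probes were. On array 1 alone the numbers were 8 of 8 and 3 of 3, beside 0.603% and 5.54%. Over all 67 probes, 7 were higher and 6 lower on array 2 alone, and 11 and 7 on array 1 alone.

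Side by side, the liver and spleen values of a class did not follow each other. Lambda had -3.20 in liver and 0.70 in spleen, IgG1 -1.55 and -0.99, IgM -4.56 and -0.02, the joining chain -4.19 and -0.09, and kappa, over all 22 probes, -1.34 and -0.01. Lambda was the class whose median lay below 0 on both liver arrays and above 0 on both spleen arrays. The difference between the tissues was not tested, since each diet and tissue was counted as 1 replicate.

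The levels of the 4 pools had a common order. In 61 of the 67 probes the NP liver was lowest, the low-NP liver above it, and both spleen pools higher still. How many probes of the whole array keep this order was not counted, so it cannot be called particular to the immunoglobulins. Over the 67 probes the median difference of liver minus spleen level was -1.97 between the low-NP pools and -3.52 between the NP pools. The difference between the NP pools was -6.61 for the alpha-end probes, -6.46 for IgM, -6.28 for the joining chain and -6.19 for lambda, so these transcripts stood far lower in the NP liver than in the NP spleen. Between the low-NP pools the same groups had -2.81, -1.62, -2.17 and -2.22. The IgM probe A_52_P571419 came nearest to its spleen level there, at -0.72. IgG1 stood furthest apart between the low-NP pools among these groups, at -3.21, with single probes from -3.28 to -2.87. Kappa probes had -1.49 and heavy variable probes -1.76.

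Markers of cell types are set beside these values, and not all of them were lower in the NP liver pool. In liver, 13 of 16 B cell markers were called lower in the NP pool (median -2.10, range -4.66 to -0.52). The log2 of their summed signals was 13.5 and 12.9 in the NP liver against 16.2 and 16.5 in the low-NP liver. Such a sum adds signals on the linear scale, so the brightest markers of a list weigh most. Of 12 T cell markers 8 were called lower (median -1.82), with sums of 12.9 and 12.4 against 14.2 and 14.7. Of 13 plasma cell markers 4 were called lower (median -0.65, range -4.27 to 0.19), with sums of 15.6 on both arrays against 16.2 and 16.3. All 12 exocrine pancreas markers were called lower (median -1.10), with sums of 17.6 and 17.5 against 18.7 on both arrays, while none of 13 hepatocyte markers was called (median 0.09). Of 8 macrophage markers 4 were called lower (median -0.63), with sums of 15.8 and 15.9 against 16.4 and 16.3. Of 6 measured erythroid markers 2 were called lower (median -0.31), with sums of 15.4 and 15.1 against 16.9 and 16.6. The low-NP liver lay below the low-NP spleen with a median of -2.16 for B cell and -2.05 for T cell markers, beside -1.97 for the immunoglobulin probes. What part the other cell types play in the liver values was not tested, nor was whether the low-NP liver pool held spleen or pancreas tissue. In pooled tissue, fewer cells of a type and less RNA per cell cannot be told apart.

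In spleen, B cell and T cell markers had medians of 0.15 and 0.06 with none called. The lambda values of 0.61 to 0.99 and the IgG1 values of -1.07 to -0.93 lay outside the B cell range of 0.00 to 0.26. The IgG1 values lay within the plasma cell range of -1.09 to 0.14, and part of the lambda values within the erythroid range of 0.30 to 0.69. Of 13 plasma cell markers (median -0.26) 2 were called lower, Fkbp11 at -1.09 ± 0.22 and Sdc1 at -1.01 ± 0.02. The log2 of the summed signals of the 13 was 17.0 and 17.1 in the NP spleen and 17.1 on both arrays in the low-NP spleen. In the same low-NP spleen pool, all 13 hepatocyte markers were higher than in the NP spleen (median ratio -6.41). The log2 of their summed signals was 21.0 and 20.6 with low NP against 15.7 and 13.8 with NP. All 12 pancreas markers were called lower in the NP spleen (median -2.11), with sums of 18.8 and 18.0 against 20.7 and 20.5. The hepatocyte sum of the low-NP spleen was in the range of the liver pools, which had 21.1 and 20.5 with NP and 20.3 and 21.2 with low NP. Marker by marker, the low-NP liver lay above the low-NP spleen with a median of 1.01 (range -1.23 to 1.97). Sdc1 is also made by hepatocytes. Of 8 macrophage markers 1 was called lower (median 0.13), and 2 of 7 erythroid markers were called higher (median 0.43). The part of these other cell types in the spleen values was not tested, nor was whether the low-NP spleen pool held liver or pancreas tissue.

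Lists of genes around the antibody were examined beside the chains. For assembly and switching of the genes, 2 of 18 were called lower in liver and none in spleen: Vpreb3, a B cell protein related to the surrogate light chain, had -2.03 ± 0.71 and Batf, a transcription factor needed for switching, had -1.18 ± 0.52. The recombinases Rag1 and Rag2 were not measured in either tissue. The median of this list was -0.02 in liver and -0.05 in spleen.

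For receptors and transport of antibodies, 5 of 15 genes on the array were called lower in liver. They were Cd79b, the signalling partner of the B cell receptor (-4.62 ± 0.43), Fcmr, the IgM receptor (-3.84 ± 0.74), Fcrla (-2.49 ± 1.20), Fcer2a, the low-affinity IgE receptor (-1.32 ± 0.68), and Fcer1g (-0.89 ± 0.19). The neonatal IgG receptor Fcgrt had 0.00 ± 0.29 and the IgA and IgM transporter Pigr 0.01 ± 0.30. In spleen 1 gene was called, Pigr, at -3.83 ± 0.49, a gene that hepatocytes express.

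For the secretory program of plasma cells, a list that shares genes with the plasma cell markers, 4 of 24 genes were called lower in liver: the coactivator Pou2af1 (-4.27 ± 0.65), the IgM chaperone Mzb1 (-3.36 ± 0.65), the receptor Tnfrsf13b (-2.05 ± 0.79) and Creld2 (-0.65 ± 0.00). Xbp1, the regulator of the secretory program that hepatocytes also use, had 0.05 ± 0.12. In spleen Fkbp11, Sdc1 and the chaperone Hyou1 (-0.66 ± 0.04) were called lower, and the chaperones Hspa5 and Hsp90b1 had -0.35 ± 0.02 and -0.47 ± 0.11. The list medians were -0.33 and -0.27.

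Genes outside the 67 with the pattern most like the joining chain were found by the mean absolute difference of centred log2 levels over the 8 array channels, among 24342 probes. Pou2af1 came nearest at 0.13, followed by Fcmr at 0.14, Cd79b at 0.23, the lambda 3 probe ENSMUST00000074329 at 0.24 and 2010309G21Rik at 0.25, where the 2 Igj probes themselves differed from their mean by 0.19. For IgM they were AI324046 at 0.24, Pou2af1 at 0.26, ENSMUST00000074329 at 0.29, 2010309G21Rik at 0.30 and Cd79b at 0.32, against 0.39 among the 3 IgM probes. AI324046, whose probe lies between the IgG1 and IgM probes on chromosome 12, had -4.64 in liver and -0.04 in spleen.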

How the data were processed

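Livers and spleens of mice on a low-NP or NP diet were profiled on 4 two-colour Agilent arrays of 1 slide. The deposited intensity values are mean spot and median background signals per dye from Agilent Feature Extraction 9.5.3.1, per the file headers and the submitters' processing notes. The deposited log10 ratios of Cy5 over Cy3 come from the scanner software's processed intensity, per the file headers. A deposited table of the series gives log10 ratios, and its method is not stated in the labels. Its columns correlated with the scanner ratios at -0.992, 0.99, -0.989 and 0.998, so each holds low NP over NP. Its column medians were 0.03, -0.07, -0.01 and -0.04, so it is not centred on 0.

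Signals were corrected with normexp (offset 50) and normalized by loess within arrays in limma 3.58.1 under R 4.3.3, with control and outlier spots given no weight. Every ratio was given the sign of NP over low NP, and repeated spots of a probe were averaged. Levels used Aquantile over the arrays. The steps were tested on simulated dye swaps. Python 3.11.15, pandas 2.3.3, biopython 1.88 and numpy 2.4.6 made the tables and alignments. Each array held 45018 spots, 1639 of them controls, and no member probe was flagged saturated. The number of arrays limits the precision.

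The member probes, the lists and the call rule were chosen with earlier results of these data known. Named are all constant region and joining chain probes, up to 6 probes with the largest and 3 with the smallest differences per class and tissue, those beside the threshold, up to 5 most alike genes, and up to 4 genes per list; Rag1, Rag2, Fcer1g, Fcgrt, Pigr in liver, Xbp1, Hspa5, Hsp90b1 and Hyou1 were chosen after their values were seen, as were the lambda probes outside the 67. Symbols and gene order came from a RefSeq table of GRCm38.p6, which named 19 of the 67 probes through a synonym, 11 through a symbol and 2 through an accession, and 35 kept the file's name. Probe positions are in mm7, as the files give them. Alternatives were other background corrections, normalizations, filters and thresholds, the deposited value table, 1 probe per gene name and single arrays. One gene of a list is not reported here by name.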

Additional observations from a re-analysis of the deposited data

Results flagged for a closer look

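The lambda light chain probes had a median log2 ratio of NP over low NP of -3.20 in liver and 0.70 in spleen, and are given here because the median was below 0 on both liver arrays and above 0 on both spleen arrays. All 8 lambda probes did so one by one, as did 9 of 22 kappa and 2 of 19 heavy variable probes, 19 of the 67 in all. Over the whole array, 7370 of 25188 measured liver probes lay below 0 on both arrays. In spleen, 6258 of 27695 measured probes lay above 0 on both. How many probes of the array did both was not counted, so the 19 have no share to be set against. The I alpha probe went the other way, with 0.03 in liver and -0.07 in spleen, both small. Among the marker lists, B cell genes had -2.10 in liver and 0.15 in spleen, T cell genes -1.82 and 0.06, macrophage genes -0.63 and 0.13, and erythroid genes -0.31 and 0.43. The list of antibody receptors and transport had -0.41 and 0.12. None of these differences between the tissues was tested, since each diet and tissue was counted as 1 replicate. With median centring 4 of the 8 lambda probes were below 0 on spleen array 2, where the lambda median was -0.01.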

How the results depend on the processing

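No error between mice can be given, since the 2 arrays of a tissue count as 1 replicate. Dim probes have little room for a lower ratio, so a small liver value limits what can be said of a probe and not of its gene. No paired analysis was possible because the results come from no test: the numbers 1 and 2 go with the dye orientation, and the labels do not settle whether they mark separate pools. Of 207 comparisons of a value with its alternatives, 156 stayed within the distance of the arrays, or for counts within 1.5 times, and 51 moved. Part of the 156 could not move. The 2-fold threshold leaves a median as it is, and the filters leave a class unchanged where all its probes pass. The median of a single array was judged against the distance between the same arrays. The 156 are therefore no measure of how stable the results are. No called median changed sign, while spleen medians near 0 did, as given below for all members and from -0.01 to 0.14 for kappa with the processed signals. In liver 43 probes were called lower under the chosen steps and between 36 and 59 under the alternatives over all probes, with 24 of 35 gene names when 1 probe stood for each name, and 0 were called higher under any. The liver median of -1.80 over measured probes became -4.19 with the scanner's processed signals and with the deposited value table, and -3.02 where both channels of both arrays had to be above background; single arrays gave -2.54 to -1.21. In spleen the 5 probes called higher, all lambda, became 8 with the processed signals and with the deposited table, and 0 with median centring, at 2-fold and with 1 probe per gene name, whose probe is the brightest one at 0.52 on array 2; single arrays gave 5 to 8 lambda probes and 7 to 11 of all 67. The 5 called lower, of which 3 are IgG1, became 1 (IgG1) at 2-fold and 1 (IgG1) with 1 probe per gene name, and 6 to 7 on single arrays. The spleen median of 0.02 over measured probes became 0.11 with processed signals, 0.12 with the deposited table, -0.21 with median centring, 0.01 without the filter, 0.04 with the stricter filter and 0.00 with 1 probe per gene name, and -0.02 to -0.01 on single arrays. The median of all measured probes moved to 0.13 in liver and 0.10 in spleen with the processed signals. The shares of all measured probes that were called moved as well. In liver, 9.12% were called lower with the processed signals, 9.15% with the deposited table and 1.41% at 2-fold, against 2.91%. In spleen, 0.242% were called higher with the processed signals and with the deposited table, and 0.00361% at 2-fold, against 0.0469%. At 2-fold 3.35% were called lower in spleen, against 5.16%. The causes were not tested beyond the fewer probes or stricter rule that some alternatives use. The lambda value relative to the joining chain was added after seeing the data. Its mean of the arrays lay between 0.79 and 0.83 under every correction run, with single arrays from 0.61 to 1.06. Relative to IgM the mean lay between 0.47 and 0.60, with 0.01 on array 1 after median centring.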
